A study of Homo sapiens with 9 samples.

Results

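MECOM, PLCB1, SLIT2, EFNA5, COL23A1, DSE and MCC are 7 long protein-coding genes that each held 4 or 5 binding peaks of the RNA helicase DHX34, nearly all of them in introns. The genes were chosen by the number of peaks inside them and by the position of these peaks in introns. Their 31 peaks made up 1.37% of the 2261 peaks of the list analysed here, and the 7 genes were among 1638 protein-coding genes with at least 1 peak, of 19383 annotated. The count of peaks and the intronic position are therefore descriptions and carry no test. Across the 31 peaks, 30 touched no exon of any transcript of their gene, and 26 lay more than 2 kb from the nearest exon. The paper went on to select a smaller set of peaks by their reads. Whether the 31 peaks belong to that set cannot be read from the list.

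The peaks came from seCLIP, a method that fixes proteins to RNA with UV light, immunoprecipitates 1 protein and sequences the RNA fragments it holds from 1 end. The 5 DHX34 libraries were anti-GFP immunoprecipitations from DHX34–GFP–FLAG A5, 1 clone of HEK293T (a human embryonic kidney cell line) that carries a GFP and FLAG tag at the endogenous DHX34 locus. The 4 control libraries came from parental, untagged HEK293T cells, and their labels call them anti-GFP inputs. All cells were UV-crosslinked, and no other treatment is labelled. The peak list pools the tagged libraries and gives each peak a position and a whole number of unstated meaning. It holds no read count, no strand and no value per library. No spread between replicates could thus be computed, the depth behind each peak cannot be read from it, and the control libraries give no background value for a gene.

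Long human genes owe their length to introns, which are transcribed into pre-mRNA and removed by the spliceosome. RNA-binding proteins that act on pre-mRNA can be crosslinked deep inside such introns, whereas those that act on mature mRNA are crosslinked in exons. DHX34 is a DExH/D-box helicase known as a factor of nonsense-mediated decay, the pathway that degrades mRNAs with premature stop codons. The genes differ in function. MECOM encodes a zinc finger transcription factor of hematopoietic stem cells. SLIT2 encodes a secreted ligand of ROBO receptors and EFNA5 a membrane-anchored ligand of Eph receptors, and both guide growing axons. PLCB1 encodes a phospholipase C that acts downstream of G proteins, and MCC a cytoplasmic protein linked to Wnt signalling. COL23A1 encodes a transmembrane collagen, and DSE an epimerase that makes dermatan sulfate.

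The sequences of the peaks are printed on the strand of their gene, since the list gives none, from the GRCh38 reference. Peaks are numbered from the 5′ end of the gene, and runs of 3 or more G are in capitals. For each gene the peak with the highest share of G is shown, to mark the upper end of the range. The letters searched here were G-rich or like a splice site, and all the G-rich ones but GAGGAG contain GGG.
MECOM peak 4 (chr3:169404554-169404655, minus strand): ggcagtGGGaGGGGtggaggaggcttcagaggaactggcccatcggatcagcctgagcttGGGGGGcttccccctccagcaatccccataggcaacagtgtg
PLCB1 peak 1 (chr20:8188049-8188153, plus strand): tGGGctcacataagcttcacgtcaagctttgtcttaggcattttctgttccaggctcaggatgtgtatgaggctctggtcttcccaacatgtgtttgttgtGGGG
SLIT2 peak 2 (chr4:20325401-20325509, plus strand): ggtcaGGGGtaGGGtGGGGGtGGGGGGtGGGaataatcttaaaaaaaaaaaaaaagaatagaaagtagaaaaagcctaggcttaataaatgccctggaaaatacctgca
EFNA5 peak 2 (chr5:107559079-107559209, minus strand): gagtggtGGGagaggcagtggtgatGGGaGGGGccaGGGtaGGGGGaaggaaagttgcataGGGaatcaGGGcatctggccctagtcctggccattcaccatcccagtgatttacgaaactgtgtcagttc
COL23A1 peak 2 (chr5:178422511-178422612, minus strand): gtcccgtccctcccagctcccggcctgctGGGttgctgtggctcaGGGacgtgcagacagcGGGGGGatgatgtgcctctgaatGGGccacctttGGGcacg
DSE peak 3 (chr6:116354440-116354542, plus strand): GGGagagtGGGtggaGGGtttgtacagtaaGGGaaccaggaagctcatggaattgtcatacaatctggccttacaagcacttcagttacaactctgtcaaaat
MCC peak 1 (chr5:113285261-113285361, minus strand): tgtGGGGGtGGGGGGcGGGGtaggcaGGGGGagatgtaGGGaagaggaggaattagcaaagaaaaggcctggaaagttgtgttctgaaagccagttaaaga
In SLIT2 peak 2, EFNA5 peak 2, DSE peak 3 and MCC peak 1 most G runs lay in the 5′ part of the peak. The share of G was 37.3% in the MECOM peak, 27.6% in the PLCB1 peak, 31.2% in the SLIT2 peak, 38.2% in the EFNA5 peak, 36.3% in the COL23A1 peak, 28.2% in the DSE peak and 45.5% in the MCC peak.

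The 3 peaks with the lowest share of G among the 31 are shown to mark the other end of the range. One of them is also the single peak that touched an exon.
EFNA5 peak 1 (chr5:107568263-107568374, minus strand): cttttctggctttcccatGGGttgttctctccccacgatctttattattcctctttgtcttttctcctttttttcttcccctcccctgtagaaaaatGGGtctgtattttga
EFNA5 peak 4 (chr5:107412166-107412269, minus strand): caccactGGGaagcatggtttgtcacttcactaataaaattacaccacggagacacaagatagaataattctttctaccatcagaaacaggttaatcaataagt
SLIT2 peak 1 (chr4:20257889-20257998, plus strand): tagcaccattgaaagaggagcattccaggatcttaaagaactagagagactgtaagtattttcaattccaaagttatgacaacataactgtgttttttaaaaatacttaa
EFNA5 peak 1 had 13.4% G, 27.7% C and 47.3% T, and its capitals are 2 short runs. EFNA5 peak 4 had 15.4% G and SLIT2 peak 1 had 16.4% G, the latter with no run of 3 G.

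The number of peaks set the genes apart by construction. Of the 19383 protein-coding genes, 18 (0.0929%) had 4 or more peaks wholly inside them. Among the 1459 genes between the lengths of DSE and PLCB1, the shortest and the longest of the 7, the number was 9 (0.617%). In that length range 1099 genes (75.3%) had 0 peaks, 260 had 1, 71 had 2 and 20 had 3. The 7 genes split into MECOM, PLCB1 and SLIT2 with 5 peaks and the other genes with 4. The selection was not complete, since most peaks touched no exon in 14 of the 18 genes, and 7 of the 14 are not among the genes described here. Among these, with 4 peaks each, were TTC28 (702 kb), SDK1 (968 kb), WWOX (1113 kb), IFT140 (102 kb), FANCA (90.3 kb) and HOXB3 (56.0 kb). The 4 remaining genes, MYH9, EIF3A, SMARCA4 and SMC1A, had most of their peaks on exons. Just under the threshold were 41 genes with 3 peaks, of which 24 had none on an exon.

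**Figure D1:**
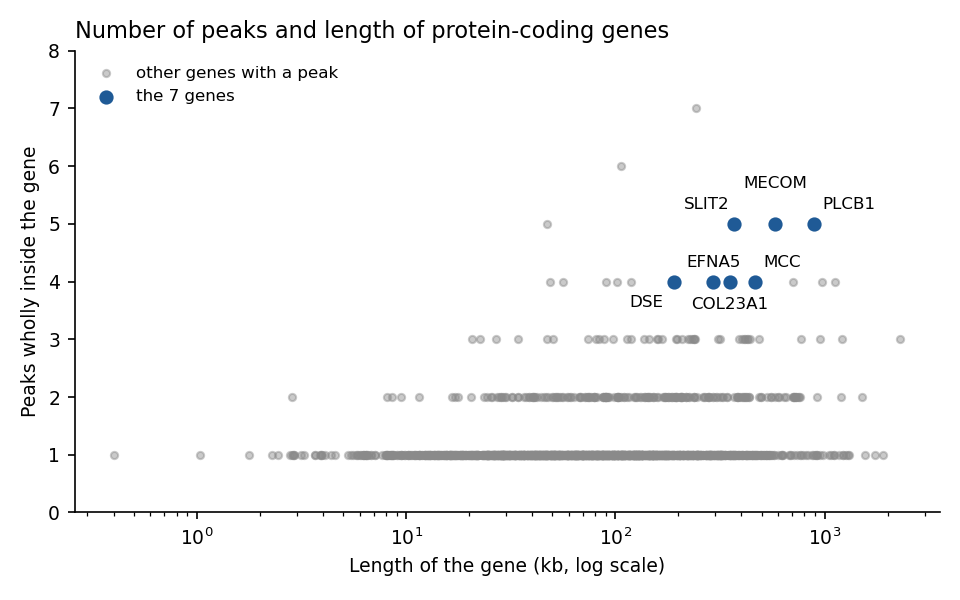
Number of peaks wholly inside each protein-coding gene with at least 1 peak (y axis) against the length of the gene in kb (x axis, log scale), with the 7 genes in blue and all others in grey. The 7 genes lie at 4 or 5 peaks and between 191 and 891 kb, with other genes at the same number of peaks on both sides of that range.

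The plot of peak number against gene length shows that the 7 genes share their length range with many genes of 1 to 3 peaks. Per 100 kb of gene, DSE had 2.10 peaks, EFNA5 and SLIT2 each 1.36, COL23A1 1.13, MECOM 0.862, MCC 0.857 and PLCB1 0.561. DSE is the shortest of the genes, at 191 kb, and PLCB1 the longest, at 891 kb. Pooled over their 3144 kb, the 7 genes had 0.986 peaks per 100 kb. The 353 other genes of this length range with a peak had 0.378 pooled, with a median of 0.363. The peak number was used to choose the genes, so that these densities are no finding.

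**Figure D2:**
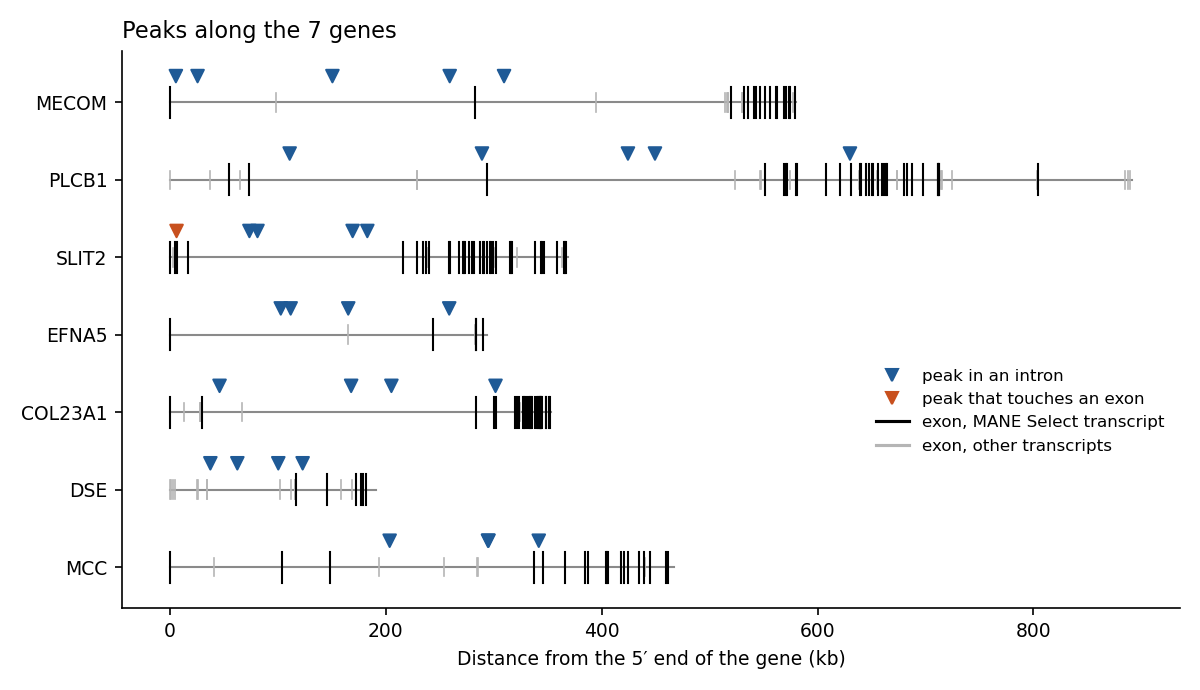
Peaks (triangles) along the 7 genes, drawn from the 5′ end of each gene in kb, with exons of the MANE Select transcript as black ticks and exons of other transcripts in grey. Of the 31 peaks 30 lie in introns (blue), SLIT2 peak 1 touches an exon (orange), and 20 lie in the longest MANE Select intron of their gene.

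The map of the genes shows the peaks spread over the long introns rather than stacked at 1 site. Introns are numbered below by the MANE Select transcript, the 1 reference transcript that the annotation marks for each gene. Exon distances are to the nearest exon of any annotated transcript of the same gene. Of the 31 peaks, 20 lay in the longest such intron of their gene, 24 in one of its 2 longest, and 8 in intron 1. Before the midpoint of the gene lay 19 of the 31. The longest intron alone makes up from 34.5% (PLCB1) to 84.2% (EFNA5) of the intron length of the MANE Select transcript. For the longest introns and the midpoint no share over other genes was computed, and a preference was not tested.

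MECOM (ENSG00000085276.19, chr3:169083499-169663775, minus strand, 580.3 kb, 17 exons) had its 5 peaks in its 2 longest introns. Peaks 1 to 4 fell in intron 1, which is 282 kb long and makes up 49.03% of the intron length, at 5.36, 25.5, 150.4 and 259 kb from the 5′ end of the gene. Peak 5 fell in the 237 kb intron 2, at 309 kb. The peak nearest to an exon was peak 1, 4917 nt from the exon upstream, and the farthest was peak 3, 52614 nt from one. That exon, upstream of peak 3, belongs to another transcript, and the nearest exon of the MANE Select transcript lay 131722 nt downstream. The peaks were 19.99, 124.8, 108.6 and 50.3 kb apart. MECOM peaks were rich in G, with 33.9, 34.5, 24.1, 37.3 and 29.8% from peak 1 to peak 5.

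SLIT2 (ENSG00000145147.20, chr4:20251905-20620561, plus strand, 369 kb, 37 exons) was the only one of the 7 genes with a peak on an exon. Peak 1, at chr4:20257889-20257998, covered 51 nt of the 72 nt exon 3 and ran 59 nt into the intron that follows. The letters after that exon are gtaagt, and the exon belongs to 6 of the 12 transcripts of the gene. The peak thus crossed a 5′ splice site, with its midpoint in the intron. The other 4 peaks, at 73.5, 81.0, 169 and 183 kb, lay in intron 4, which is 199 kb long and makes up 55.1% of the intron length. They were 56519, 64006, 46590 and 32929 nt from the nearest exon. Peaks 2 and 3 were 7378 nt apart, and peaks 4 and 5 were 13509 nt apart, so that the intron held 2 pairs. Peak 5, at 152 nt, was the widest of the 31. From peak 1 to peak 5 the share of G was 16.4, 31.2, 20.6, 26.9 and 28.9%.

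EFNA5 (ENSG00000184349.14, chr5:107376894-107670937, minus strand, 294 kb, 5 exons) had 3 of its 4 peaks in intron 1, which takes up 243 kb, or 84.2% of the intron length. These lay at 102.6, 111.7 and 165 kb, and peak 4 lay in the 39.4 kb intron 2 at 259 kb. Peaks 1 and 2 were 9053 nt apart, and differed widely in composition, with 13.4 and 38.2% G. Peak 2 was the single peak of the 31 with a value of 2 in the fourth column of the list, where the other 30 had 1. Peak 3 lay 286 nt from an exon of another transcript but 78206 nt from any exon of the MANE Select transcript. Peak 4 was 14706 nt from an exon. Peaks 3 and 4 had 29.1 and 15.4% G, so that EFNA5 held G-rich and G-poor peaks alike.

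PLCB1 (ENSG00000182621.19, chr20:8077251-8968360, plus strand, 891 kb, 32 exons) had peaks 1 and 2 in intron 2 (221 kb), peaks 3 and 4 in intron 3 (257 kb) and peak 5 in intron 11 (10.9 kb). They lay at 111, 289, 424, 449 and 630.0 kb from the 5′ end. Peak 3, with 99070 nt to the nearest exon, and peak 4, with 74008 nt, were among the most remote of all, whereas peak 5 was 1275 nt from the exon downstream. The gap of 181 kb between peaks 4 and 5 was the widest between neighbours in the 7 genes. The PLCB1 peaks held at most 27.6% G, with 27.6, 18.3, 21.8, 18.4 and 26.0% from peak 1 to peak 5.

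MCC (ENSG00000171444.19, chr5:113022106-113488823, minus strand, 467 kb, 19 exons) held the closest pair of peaks. Peaks 2 and 3 were 398 nt apart in intron 3, a 189 kb intron that also held peak 1, 91.0 kb upstream of them. No other neighbours in the 7 genes were less than 1 kb apart. Peaks 1, 2 and 3 lay 8967, 9000 and 9507 nt from the nearest exon, and peak 4, in the 7.95 kb intron 4, lay 3710 nt from one. The exons nearest to peaks 1, 2 and 3 belong to other transcripts. Exons of the MANE Select transcript lay 55157, 42705 and 42205 nt from these 3 peaks. The paired peaks had 18.3 and 26.5% G, peak 1 had 45.5%, the highest of the 31, and peak 4 had 20.6%.

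COL23A1 (ENSG00000050767.18, chr5:178237476-178590393, minus strand, 353 kb, 29 exons) had peaks 1, 2 and 3 in intron 2, which is 254 kb long and makes up 72.5% of the intron length. They lay at 45.8, 168 and 205 kb and were 16117, 100892 and 78300 nt from an exon. By exons of all transcripts, peak 2 was the most remote among the 31. By the MANE Select transcript alone it lay 115591 nt from an exon, less than MECOM peak 3 (131722 nt) and PLCB1 peak 3 (126649 nt). Peak 4 was of another kind, in the 2.01 kb intron 4, 383 nt from the exon downstream. COL23A1 peaks were rich in both G and C, with 35.3, 36.3, 31.1 and 26.7% G and 26.5, 31.4, 33.0 and 30.7% C.

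DSE (ENSG00000111817.19, chr6:116254173-116444861, plus strand, 191 kb) depended most on the choice of transcript. Its MANE Select transcript, with 6 exons, begins 117 kb inside the gene, and peaks 1, 2 and 3, at 37.3, 62.3 and 100.3 kb, lie upstream of it. In the longest transcript these 3 peaks and peak 4 fell in the same intron, intron 2 of 140.2 kb. Peak 4, at 123 kb, fell in the 28.1 kb intron 1 of the MANE Select transcript. The distances to the nearest exon were 2990, 27988, 1137 and 5875 nt. The share of G was 23.6, 18.6, 28.2 and 18.4%, and the gaps between the peaks were 24.9, 37.9 and 22.5 kb.

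Neighbouring peaks of a gene were a median of 51.7 kb apart over 24 pairs. Only the MCC pair was under 1 kb apart, 3 pairs were under 10 kb, and 6 were over 100 kb. A shared intron of the MANE Select transcript held 14 of the 24 pairs. The list joins calls of several libraries, and whether the same library gave neighbouring peaks cannot be read from it.

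The 30 intronic peaks lay a median of 24021 nt from an exon of their gene. The 1322 intronic peaks of other protein-coding genes lay a median of 2441.5 nt away, and the 424 in other genes of the same length range 7416 nt. In genes of that range with only 1 peak the median was 6976.5 nt over 228 peaks, and in the 7 other genes with 4 or more mostly intronic peaks it was 3282 nt over 30 peaks. That last set includes short genes, and the median by gene was 35448 nt in TTC28 (1062 to 65696 nt), 22529.5 nt in SDK1 (7797 to 43688 nt) and 6551 nt in WWOX (2075 to 120960 nt), each over 4 peaks. Over the 4 genes of this set at least as long as DSE the median was 8268 nt for 19 peaks, and over the 3 shorter ones 1160 nt for 11 peaks. Some other long genes with several intronic peaks thus had peaks as remote from exons. More than 10 kb from an exon lay 60% of the 30 peaks, against 22.8% of those in all other genes and 42.2% in other genes as long. More than 50 kb away lay 9 of 30 (30%), against 3.33% and 7.31%. The 7 genes were chosen as long genes with several intronic peaks, and these differences in distance and their cause were not tested. The median over all 31 peaks was 23029 nt. With exons of the MANE Select transcript alone it was 42205 nt, and it ranged from 15411.5 to 26884 nt when each gene was left out in turn.

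**Figure D3:**
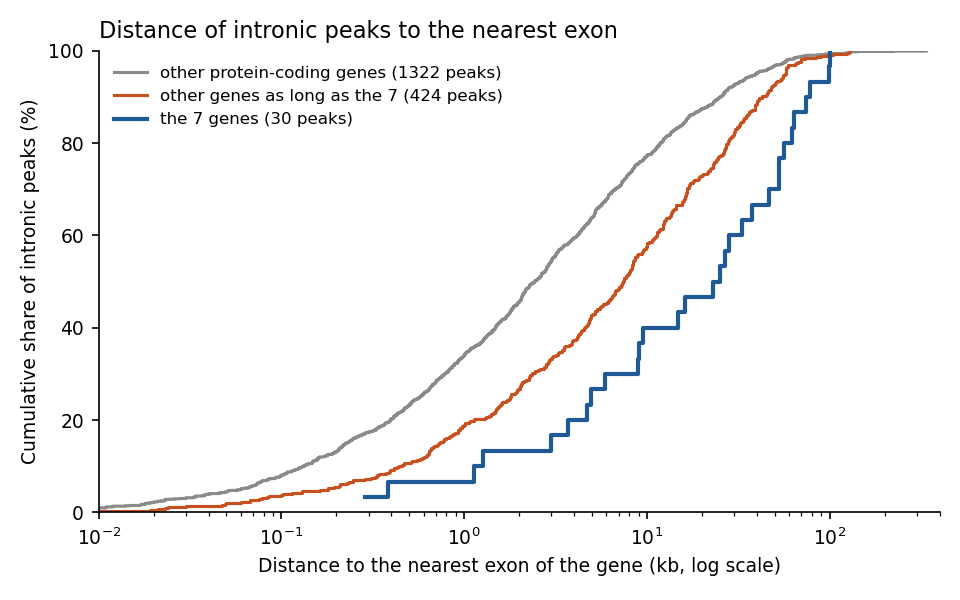
Cumulative share of intronic peaks (y axis, %) by distance to the nearest exon of their gene (x axis, kb, log scale), for the 7 genes (blue), other protein-coding genes of the same length range (orange) and all other protein-coding genes (grey). The curve of the 7 genes lies to the right, with a median of 24021 nt against 7416 and 2441.5 nt.

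Intron 1 held 8 of the 30 intronic peaks (26.7%), 4 in MECOM, 3 in EFNA5 and 1 in DSE, against 29.0% of intronic peaks in other genes and 23.1% in other genes as long.

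The median share of G in the peaks of the 7 genes was near that of other intronic peaks, and not every peak was G-rich beside its own introns. The median share of G was 26.8% over the 30 intronic peaks, 27.6% over the 1322 of other genes and 25.7% over the 424 in other genes as long. By gene the median was 33.9% in MECOM, 33.2% in COL23A1, 26.9% in SLIT2, 23.5% in MCC, 22.2% in EFNA5, 21.8% in PLCB1 and 21.1% in DSE. MECOM peaks, at 24.1 to 37.3%, and PLCB1 peaks, at 18.3 to 27.6%, overlapped in range. The median of 100 nt windows over the introns of each gene was between 18 and 20% G in all but COL23A1, where it was 25%. COL23A1 peaks were thus less far above their own introns than MECOM peaks. As much G as in a MECOM peak was found in 0.755 to 18.4% of MECOM intron windows, and as much as in a COL23A1 peak in 10.2 to 42.8% of COL23A1 windows. In PLCB1 that share of windows was 9.74 to 51.5%, in SLIT2 3.01 to 57.9% and in EFNA5 0.486 to 85.7%. In DSE it was 9.27 to 51.2% and in MCC 0.110 to 62.5%. The G-poorest peak of each of these 5 genes thus held less G than the median window. The extremes were MCC peak 1, matched by 0.110% of windows, and EFNA5 peak 1, matched by 85.7%.

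**Figure D4:**
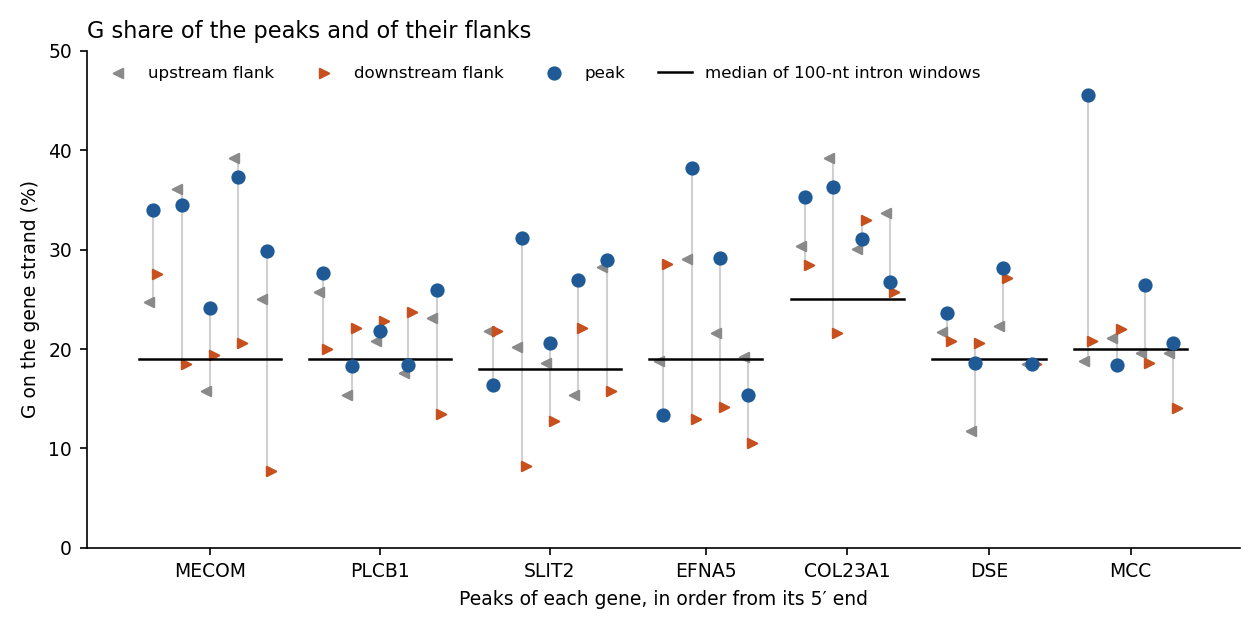
Share of G on the gene strand (y axis, %) of each of the 31 peaks (blue circles) and of the flanks of equal width upstream (grey) and downstream (orange), by gene and in order from the 5′ end. Black lines give the median of 100 nt intron windows, and MCC peak 1 is the highest peak at 45.5%.

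The plot of G shares sets each peak beside its own flanks. In 23 of the 31 peaks the share of G was above the mean of the flanks of equal width, and in 17 it was above both flanks. All 5 MECOM peaks held more G than the downstream flank, but peaks 2 and 4, with 34.5 and 37.3%, held less than the upstream flank, with 36.1 and 39.2%. The median difference between an intronic peak and its flanks was 5.39 percentage points in the 7 genes and 2.94 points in other genes, as in other genes as long. The flanks themselves held less G in the 7 genes, with a median of 20.8%, against 24.3% in other genes and 22.3% in other genes as long. Intronic peaks with more G than their flanks made up 76.7% of the 30, 67.0% of the 1322 and 68.4% of the 424. Those with more G than both flanks made up 56.7% of the 30, 44.02% of the 1322 and 46.2% of the 424. In the 7 other genes with 4 or more mostly intronic peaks, over 30 peaks, the share above both flanks was also 56.7%. Peaks are no replicates, and none of these differences was tested.

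G was concentrated at the 5′ side of the peaks. The median share of G was 32% in the first 50 nt and 20% in the last 50 nt of the 30 intronic peaks, and 22 of the 30 (73.3%) had more G in the first 50 nt. In other genes these values were 30%, 24% and 71.7%. MCC peak 1 had 66% G in the first 50 nt and 26% in the last, EFNA5 peak 2 had 62 and 18%, and EFNA5 peak 3 had 52 and 10%. The order was turned in 6 of the 30, namely MECOM peaks 1 and 3, PLCB1 peak 1, COL23A1 peaks 1 and 2 and MCC peak 4, and both ends held as much G in 2. In MECOM peak 1 the shares were 26 and 44%, and in PLCB1 peak 1 they were 20 and 34%. The PLCB1 sequence printed above accordingly ends in a G run.

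**Figure D5:**
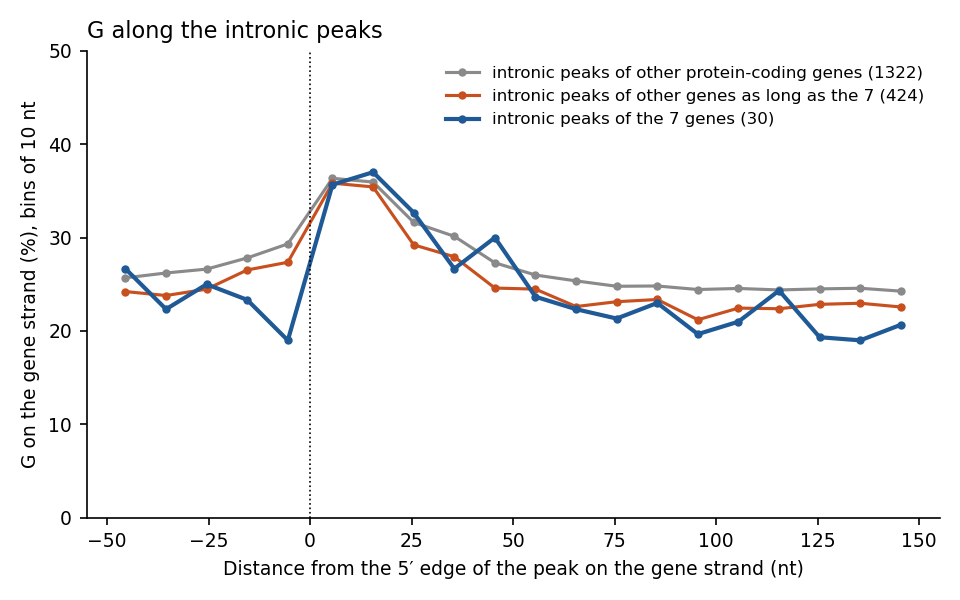
Share of G on the gene strand (y axis, %) in bins of 10 nt by distance from the 5′ edge of the peak (x axis, nt), averaged over the 30 intronic peaks of the 7 genes (blue), 424 of other genes as long (orange) and 1322 of all other genes (grey). In the 7 genes the share is 19.0% in the bin before the edge, 35.7% in the bin after it and 37.0% in the next.

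The profile of G along the peaks shows a step at the 5′ edge. In the 7 genes the share of G was 19.0% in the last 10 nt before the edge and 35.7% in the first 10 nt of the peak. In the other genes the same bins held 29.3 and 36.3%, and in other genes as long 27.4 and 35.8%. In the first 10 nt of the peak the level was thus alike, and in the last 10 nt before the edge it was lower in the 7 genes. Other bins did not keep this order. From 50 to 41 nt before the edge the 7 genes held 26.7%, against 25.7% in the others and 24.2% in other genes as long. From 40 to 31 nt before it these shares were 22.3, 26.2 and 23.8%. From 41 to 50 nt after the edge they were 30, 27.3 and 24.6%. From 91 to 100 nt after the edge, still inside the peaks, the share was 19.7% in the 7 genes, 24.4% in the others and 21.2% in other genes as long. In that bin part of the lower G was thus shared by other long genes. Each bin of the 7 genes rests on 30 peaks, and its spread over libraries is unknown.

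Among the letters searched, GGG was present on the gene strand of 27 of the 31 peaks (87.1%), of 84.9% of intronic peaks of other genes and of 54.7% of 100 nt intron windows of the 7 genes. GGGG, which is contained in longer runs and overlaps GGG, was present in 20 peaks (64.5%), 54.2% of the others and 17.4% of windows. On the opposite strand GGGG was present in 7 of the 31 peaks (22.6%), 28.4% of other intronic peaks and 16.5% of windows. A G-quadruplex pattern, 4 runs of 3 or more G with spacers of 1 to 7 nt, was matched by SLIT2 peak 2, EFNA5 peak 2 and MCC peak 1, which is 9.68% of the peaks, against 6.73% of other intronic peaks and 0.412% of windows. These 3 peaks are among the sequences printed above.

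A set of G-rich 6-mers was searched because earlier results of these data had named them. GGAGGG was present on the gene strand of 7 of the 31 peaks (22.6%), GGGGAG of 4 (12.9%) and GAGGAG of 3 (9.68%), and these letters overlap each other and the G runs. At least 1 of the 6-mers was present in 10 peaks (32.3%): 3 in MECOM, 2 each in SLIT2 and EFNA5, and 1 each in COL23A1, DSE and MCC. PLCB1 peaks held none. The share was 31.7% in other intronic peaks and 7.14% in windows, and on the opposite strand it was 12.9% of the 31 peaks and 6.47% of windows. All these matches were descriptions of letters in a peak and show no binding site.

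The letters GTAAGT and GTGAGT, which resemble a 5′ splice site, were each present in 3 of the 31 peaks (9.68%), and in 2 (6.67%) and 3 (10%) of the 30 intronic peaks. GTAAGT lay at the end of exon 3 in SLIT2 peak 1 and, far from annotated exons, in SLIT2 peak 3 and MECOM peak 3. GTGAGT lay in MECOM peaks 1, 2 and 5, so that 4 of the 5 MECOM peaks held letters of this kind. In other intronic peaks the shares were 2.19% for GTAAGT and 2.50% for GTGAGT, in those of other genes as long 3.07 and 2.12%, and in windows 2.03 and 2.14%. On the opposite strand of the 31 peaks GTAAGT was present in 0 and GTGAGT in 2, and counts of 2 or 3 peaks do not separate the strands.

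None of the 31 peaks overlapped another annotated gene on either strand, nested or antisense. Of the 1884 peaks inside other protein-coding genes 277 (14.7%) did, and of the 424 intronic peaks in other genes as long 42 (9.91%) did. The 31 peaks lie in 7 chosen genes and are no replicates. A count of 0 of 31 thus sets no limit on the share, and the difference was not tested. The spans of the 7 genes hold parts of 20 other genes, 11 of them on the opposite strand, which cover 7.41% of the 3144 kb. The covered share was 30.6% in DSE, 24.5% in MCC, 6.90% in MECOM, 1.86% in COL23A1, 1.24% in PLCB1, 0.763% in SLIT2 and 0% in EFNA5. In COL23A1 the RNA gene RN7SL646P lay 6999 nt from peak 3, and in DSE TSPYL1 lay 11553 nt from the nearest peak. The intronic transcripts SLIT2-IT1 and PLCB1-IT1 lay 26201 and 60550 nt from the nearest peak. The strand used for the sequences above is thus that of the only gene annotated at each peak, although the list itself does not give the strand of the RNA.

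Peaks in repeated sequence are hard to place, and the authors kept uniquely mapped reads and removed those in transposable elements. The share of 16-mers of a peak with 100 or more copies in the genome, a measure chosen after the values were seen, was 25.5% in SLIT2 peak 2, whose run of A follows the G runs. It was 9.20% in SLIT2 peak 3, 9.24% in EFNA5 peak 3, 6.32% in SLIT2 peak 1, 6.19% in EFNA5 peak 1, and at most 3.49% in the other 26 peaks. Whether reads in such letters were placed wrongly was not tested.

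Peaks were also looked for in relatives and partners of the 7 genes. Of 38 such genes, 6 (15.8%) had a peak, beside 1631 of 19376 (8.42%) of all other protein-coding genes, a share not matched for length. Of the 1459 genes between the lengths of DSE and PLCB1, 1099 (75.3%) had 0 peaks. The 6 relatives with a peak were 180 to 1743 kb long, whereas the other ephrin ligands were 5.82 to 45.9 kb long. None of these differences was tested. None of the 7 other ephrin ligands, the 3 other phospholipases C of the beta group, the 3 other transmembrane collagens, the 3 other dermatan sulfate enzymes or the MCC paralog USHBP1 had one. Among the 14 Eph receptors, which bind ephrins such as EFNA5, EPHA6 and EPHB2 had 1 intronic peak each and EPHA7 had 1 on an exon. Among the SLIT ligands and ROBO receptors other than SLIT2, the receptors ROBO1 and ROBO2 had 1 peak each and the ligands SLIT1 and SLIT3 had 0. PRDM16, the closest paralog of MECOM, had 2 intronic peaks. Among the longer of these genes, ROBO2 (1743 kb) had 1 peak. SLIT3 (639 kb), COL25A1 (494 kb), EPHB1 (465 kb), PLCB4 (437 kb), EPHA3 (375 kb), EPHA5 (351 kb) and UST (330.0 kb) had 0. The expression of these genes in HEK293T cells was not analysed here, and a gene without a peak may be bound below the limit of detection.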

How the data were processed

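The authors trimmed the seCLIP reads (cutadapt), extracted molecular identifiers (umi_tools), aligned the reads to GRCh38 (bowtie2), removed duplicates, reads with several positions and reads in transposable elements, and called peaks with macs2 against merged controls. Each read was extended to a fixed length, so peak edges depend on that setting. The deposited list holds 4 columns: chromosome, 0-based start, end and a whole number used as a score of unstated meaning. It was taken to be the union of the replicates' calls. Depth per peak is unknown from the list, and the 5 tagged libraries cannot be compared.

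Starts are printed counting from 1. Peaks wholly inside a gene of GENCODE release 44 (19383 protein-coding genes, without read-through genes) were assigned to it, with exons from all its transcripts. Base shares, flanks of equal width, 100 nt intron windows and 16-mer copies were read from GRCh38 with Python 3.11.15, pysam 0.24.0, numpy 2.4.6 and pandas 2.3.3. The overlap and distance steps were checked on constructed intervals with known answers. Members, gene lists, 6-mers and alternatives were chosen with earlier results of these data known, and no test was run. Named are the 7 genes, genes with at least 3 peaks, listed relatives with a peak and other genes in the spans; relatives without a peak were named after their values were seen, and 1 gene is not reported here. Alternatives were other transcript sets, parts of a peak, flanks, overlap rules and leaving out each gene.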

Additional observations from a re-analysis of the deposited data

How the results depend on the processing

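The list holds no replicates, so each of the 7 genes was left out in turn, which does not replace a replicate. No paired analysis was possible because the list holds no value per library. Of 84 alternative values 79 stayed within 1.5 times the count, or within 1 SD over peaks or genes of the median, and 5 moved. This tally is no measure of robustness. The SD is the spread over peaks or genes, not the uncertainty of a median. Leaving out 1 gene removes few of the 31 peaks, so that most counts could hardly move. Limited to peaks whose score was at least 2, the 31 peaks came down to 1 (3.23%), beside 52 of the 2261 peaks of the list (2.30%). By the midpoint of the peak, and without SLIT2, 0 peaks touched an exon in place of 1. Peaks in intron 1 numbered 4 without MECOM and 5 without EFNA5, against 8, because these 2 genes held 7 of the 8. Leaving out each gene, peaks that touched an exon ranged from 0 to 1 and peaks in intron 1 from 4 to 8. The median distance to an exon, 23029 nt, became 42205 nt with the MANE Select transcript alone. This shift counted as unmoved only because the SD over peaks was 30404 nt. The number of peaks with more G than their flanks was 20 for the central 50 nt and 25 for the first 50 nt of a peak, against 23, and 18 to 21 when each gene was left out. The median share of G was 32% in the first and 20% in the last 50 nt, against 26.7%. The cause of these changes was not tested beyond the genes named. With 31 peaks, a difference of a few peaks cannot be told from counting error, and the read counts behind each peak cannot be read from the list.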
